A study of Homo sapiens with 9 samples.

Results

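Long noncoding RNAs are transcripts that are processed much like messenger RNAs but have no known protein product. Some arise between genes and carry LINC symbols, and others run against a protein-coding gene on the opposite strand and carry its name with the suffix AS. Their known roles include holding nuclear bodies together, guiding chromatin factors and tuning the gene they overlap, and many are short-lived, so their level can move within hours of a stress. The RNAs described here were chosen by symbol alone: LINC followed by digits (intergenic), a suffix AS with a digit (antisense), a suffix IT or OT with a digit (intronic or overlapping), or one of the well-known transcripts MALAT1, NEAT1, GAS5 and TUG1. A named probe set was found for 975 such genes, and 616 of them reached a log2 intensity of 5 on at least 3 of the 9 arrays and were tested among 12155 genes. These were 266 intergenic RNAs, 326 antisense RNAs, 22 intronic or overlapping transcripts, MALAT1 and GAS5. NEAT1 and TUG1 were not analysed here. Where a gene had several probe sets, the one with the highest mean stood for it. The classes follow the symbols, and neither the strand nor the position of the probes was checked.

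The cells were EA.hy926, an established clonal line made by fusing umbilical vein endothelial cells with A549 lung carcinoma cells, so 1 hybrid line stands for endothelium. Of 9 Affymetrix whole-transcript arrays, 3 held unexposed cells, 3 held cells given 5 nm silver nanoparticles and 3 held cells given 100 nm silver nanoparticles. The exposed cells were sampled after 6 h at a concentration near the LD50; no mass dose is stated in the labels. The titles number the arrays 1 to 3 in each group, and nothing says that the numbers are separate cultures, so a p-value measures the spread between these arrays, which may be technical.

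The values are log2 intensities, and a difference of 1 is a 2-fold change. Arrays of the same number deviated from their group means together. After the group means were removed, the 616 RNAs correlated at 0.824 to 0.961 between arrays of the same number. Between arrays of different numbers they correlated at -0.505 to -0.399. Once arrays of a number go together, removing the mean of 3 arrays draws these latter values below 0. They therefore do not measure likeness within a group. Because arrays of a number deviated together, many results are given within each number as well as over the groups. A second fit with the number as a block stands beside the first. On the 3 arrays of a number, 50.8% to 53.9% of the RNAs held exactly 1 value. Small differences may have been set to 0 when the arrays were summarised, which was not tested. Array medians over all probe sets ran from 5.15 to 5.64, and 10764 to 11944 genes and 425 to 586 of these RNAs reached 5 on an array. Of 15 listed endothelial markers, 11 had a probe set. Of these, 10 reached 5 on all 9 arrays, while EMCN stayed under 5 on all 9. The mean of these markers ran from 8.58 to 8.94 in control, 8.38 to 8.82 with 5 nm and 8.57 to 8.92 with 100 nm particles. Epithelial markers, which belong to the other parent of the hybrid, reached 5 on all 9 arrays for 5 of 7, and both fibroblast markers measured, DCN and LUM, stayed under 5. Of 2 leukocyte markers measured, 1 reached 5 on all 9 arrays. Among named genes outside this set of RNAs, 83% reached 5 on at least 3 arrays, so reaching it does not mark a cell type. Fewer cells of a kind and less RNA per cell cannot be told apart in such extracts.

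Of the 975 RNAs with a named probe set, 63.2% reached a log2 value of 5 on at least 3 arrays, beside 83% of 13909 other named genes. The share was 58.1% for 458 intergenic RNAs and 67.9% for 480 antisense RNAs. Of the 616 tested, 382 reached it on all 9 arrays and 234 on 3 to 8, and the 359 others were not tested. Of the 616, 108 reached it on fewer than 3 of the 6 arrays without 5 nm particles, so their place among the tested RNAs rests in part on the 5 nm arrays. LINC00622 and LINC01822 each reached it on 2 of those 6, and LINC00624 on 0.

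Promoters are shown for the RNAs that passed a test with 5 nm particles in either fit, so that the letters upstream of these starts can be read beside the values. The windows run from 250 bases before to 50 bases after the start in RefSeq on GRCh38.p14, and capitals mark matches to 7 short motifs searched on both strands. The LINC00622 window is chr1:119599242-119599541 on the minus strand. The LINC00339 window is chr1:22024941-22025240 on the plus strand. The KCNJ2-AS1 window is chr17:70169353-70169652 on the minus strand. LINC00624, which more than doubled in every number, is named only.
LINC00622: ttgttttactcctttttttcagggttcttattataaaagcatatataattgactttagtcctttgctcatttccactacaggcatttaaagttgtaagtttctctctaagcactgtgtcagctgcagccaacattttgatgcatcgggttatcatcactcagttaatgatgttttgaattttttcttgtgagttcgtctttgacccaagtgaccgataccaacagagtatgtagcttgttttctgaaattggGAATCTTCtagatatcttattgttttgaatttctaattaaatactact
LINC00339: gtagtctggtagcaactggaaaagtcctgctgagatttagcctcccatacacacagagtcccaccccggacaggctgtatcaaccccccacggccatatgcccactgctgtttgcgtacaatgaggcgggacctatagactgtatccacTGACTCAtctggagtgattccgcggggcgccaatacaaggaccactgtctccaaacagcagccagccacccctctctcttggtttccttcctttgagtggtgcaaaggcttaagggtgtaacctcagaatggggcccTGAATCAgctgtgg
KCNJ2-AS1: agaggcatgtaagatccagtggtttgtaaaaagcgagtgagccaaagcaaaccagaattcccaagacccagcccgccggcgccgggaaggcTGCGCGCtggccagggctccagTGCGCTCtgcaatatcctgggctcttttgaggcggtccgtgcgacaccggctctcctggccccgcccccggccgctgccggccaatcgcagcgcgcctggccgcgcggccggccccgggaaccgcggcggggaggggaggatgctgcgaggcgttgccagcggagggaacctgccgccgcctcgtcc

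The LINC00622 window held 1 match to the heat shock element GAANNTTC, the letters bound by heat shock factors, 3 bases into the transcript. The LINC00339 window held 2 matches to the AP-1 site TGANTCA, at -101 and 37, where 1 is the first transcribed base. The KCNJ2-AS1 window held 2 matches to the G form of the metal response element core, TGCGCNC, at -159 and -137. The A form of that core (TGCACNC), the antioxidant response element (TGACNNNGC), the cyclic AMP response element (TGACGTCA) and the C/EBP-ATF composite element (TGATGCAA) had no match in these windows, and no matches overlapped. Such letters are common: of 35116 promoters of the same length, 6.77% held the heat shock element, 7.71% the AP-1 site and 20% the G form of the metal core. Among the 463 tested RNAs with a promoter in the table, the shares were 6.05%, 10.2% and 16.2%. The antioxidant element was in 13.3% of all promoters and 17.9% of those of these RNAs, the A form of the metal core in 12.1% and 12.7%, the cyclic AMP element in 1.85% and 1.94%, and the composite element in 0.866% and 1.08%. A match is a description of letters and not a bound site.

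With 5 nm particles, 1 long noncoding RNA stood far from the rest. LINC00622, an intergenic RNA of chromosome 1, read 4.88, 4.42 and 5.05 on the control arrays 1 to 3 and 7.43, 9.39 and 8.15 on the arrays with 5 nm particles. With 100 nm particles it read 4.88, 3.72 and 5.10. All 3 arrays with 5 nm particles lay above the other 6, which sat near or under the level of 5. The means were 4.78 ± 0.33 in control and 8.32 ± 0.99 with 5 nm particles (SD, n = 3 each). LINC00622 rose by 3.54 on the log2 scale (95% interval 2.46 to 4.62), an 11.7-fold change in intensity, with a limma adjusted p of 0.0365. It met the requirement for testing only through its 5 nm arrays, and the limma adjusted p was 0.0687 with no floor and 0.056 with a floor of 4. The rise was 2.55, 4.97 and 3.10 within numbers 1, 2 and 3. The control mean lies under the level of 5 required of a tested gene, so the fold is taken from a dim baseline and its size is uncertain.

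LINC00622 was the only one of the 616 RNAs to pass the adjusted test as higher with 5 nm particles, where 0.074% of all genes tested did so. None passed as lower, against 0% of all genes. At an unadjusted limma p under 0.05, 6 of the RNAs were higher and 4 lower, against 1.36% and 0.296% of all genes. With the number as a block the adjusted p of LINC00622 was 0.133, and over 19 alternative settings it ran from 0.0106 to 0.548 and passed in 8. It did not pass in limma without control array 1 (adjusted p 0.0827), control array 2 (0.234), control array 3 (0.109), or 5 nm array 2 (0.0792) or 3 (0.0535), and its difference over all these settings was 3.01 to 3.99. Its neighbours in the RefSeq gene order that were tested differed less: ZNF697, a zinc finger gene, by 0.62 (0.77, 0.87 and 0.22 within numbers) and HAO2, a peroxisomal hydroxyacid oxidase gene, by 0.12.

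**Figure D1:**
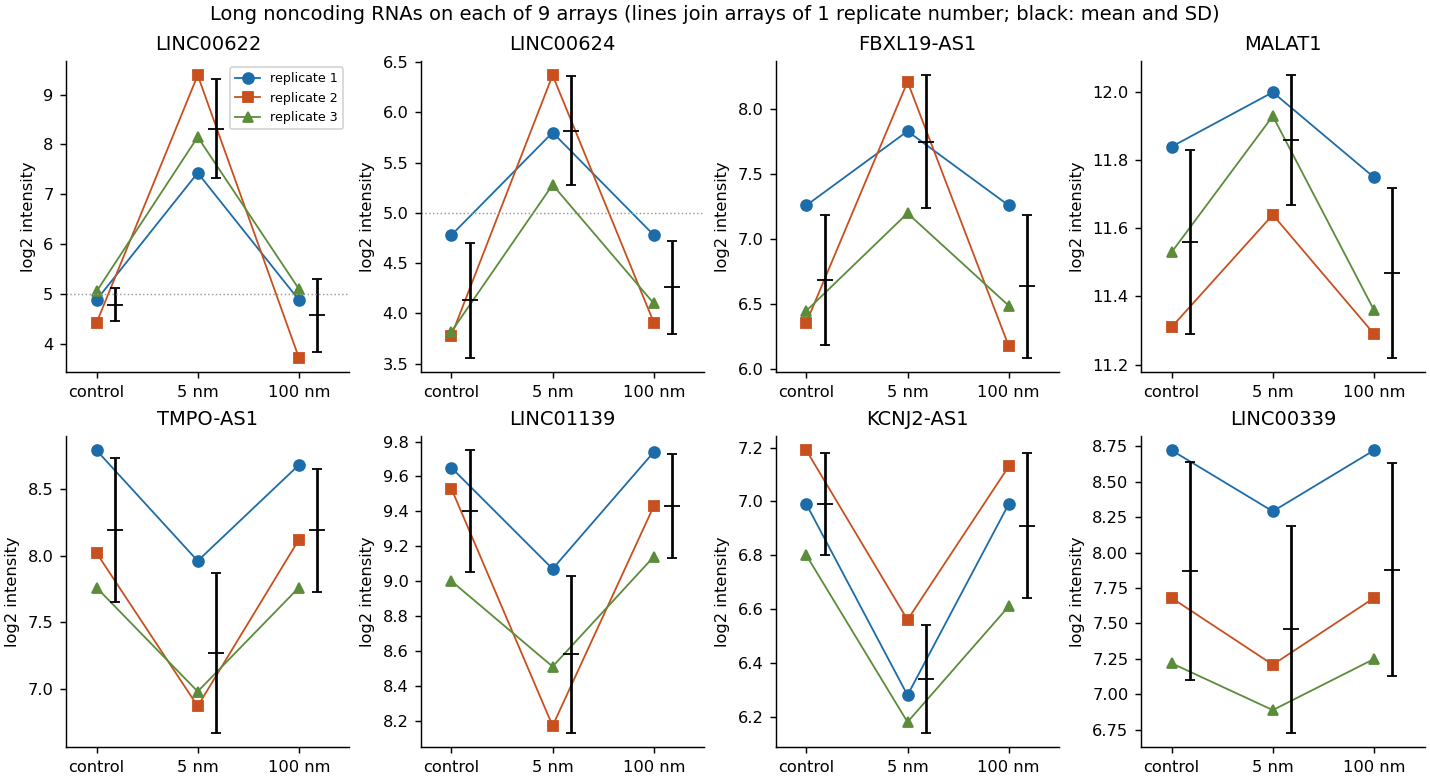
Log2 intensity of 8 long noncoding RNAs (vertical axis) on each of 9 arrays in the control, 5 nm and 100 nm groups; lines join arrays of the same replicate number, black marks give the mean and SD of 3 arrays, and the dotted line marks the log2 value of 5. LINC00622 reads 7.43 to 9.39 with 5 nm particles and 3.72 to 5.10 on the other 6 arrays, and KCNJ2-AS1 and LINC00339 are lower with 5 nm particles in every number.

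LINC00624, another intergenic RNA of chromosome 1, was also higher with 5 nm particles. It read 4.78, 3.78 and 3.82 in control, 5.80, 6.37 and 5.28 with 5 nm particles, and 4.78, 3.91 and 4.10 with 100 nm particles. The groups did not overlap, and the difference was 1.69 (0.88 to 2.51), or 1.02, 2.59 and 1.46 within numbers. All its control and 100 nm values lay under 5, so the size of the difference rests on a dim baseline. Its adjusted p in limma was 0.366, and 0.154 with the block, so it did not pass. LINC00622 and LINC00624 were the RNAs of this set that were higher by a log2 of at least 1 in every number, where 0.222% of all genes were. Both met the requirement for testing only through their 5 nm arrays, where they were high, so nothing is read from this count. No RNA of the set was lower by that much in every number, nor was any gene tested (0%). By over 0.3 in every number, 4 RNAs (0.649%) were higher and 8 (1.3%) lower, beside 1.71% and 1.05% of all genes. The 4 include LINC00622 and LINC00624, so nothing is read from that count either.

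Among the other intergenic RNAs, 3 had arrays with 5 nm particles that all lay above the control arrays. LINC00161 read 5.20, 5.14 and 4.99 in control and 5.62, 5.74 and 5.67 with 5 nm particles, a difference of 0.57 (0.12 to 1.02). LINC00839 read 7.32, 7.10 and 7.21 in control and 7.46, 7.89 and 7.72 with 5 nm particles, a difference of 0.48 (0.04 to 0.92). LINC00173 differed by 0.35 (-0.10 to 0.80), by 0.45, 0.02 and 0.57 within numbers, and 2 of its other probe sets held 1 value, to the second decimal, on the arrays of each number. LINC01822, which met the requirement for testing only through its 5 nm arrays, differed by 0.53. Within numbers it differed by 1.25 in number 2 and by 0.10 and 0.23 in the others. None of these passed in limma, with adjusted p 1 over the groups and 0.163 (LINC00161), 0.262 (LINC00839), 0.312 (LINC00173) and 0.457 (LINC01822) with the block.

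Of the antisense RNAs with higher values, FBXL19-AS1 had the largest difference. It runs against FBXL19, which encodes an F-box protein that binds unmethylated CpG DNA. It read 7.26, 6.36 and 6.45 in control, 7.83, 8.21 and 7.20 with 5 nm particles, and 7.26, 6.18 and 6.49 with 100 nm particles. The difference was 1.06 (0.25 to 1.87), with 0.57, 1.86 and 0.75 within numbers, and the 5 nm array of number 3 overlapped the controls. HIF1A-AS2, which runs against the gene of the hypoxia factor HIF1A, differed by 0.48, with 0.11, 1.03 and 0.32 within numbers. PTOV1-AS1 differed by 0.36 (0.07, 0.89 and 0.13), SPAG5-AS1 by 0.28, WEE2-AS1 by 0.19 and KRTAP5-AS1 by 0.15. None of these 6 passed in limma, with adjusted p 1 over the groups and 0.156 to 0.483 with the block.

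In all, 6 RNAs had non-overlapping groups with higher values under 5 nm particles, namely LINC00622, LINC00624, LINC00161, LINC00839, LINC00173 and WEE2-AS1, where 1.41% of all genes did. Of these, LINC00622 and LINC00624 were tested only through their 5 nm arrays. The number with lower values was 2, KCNJ2-AS1 and ARHGAP5-AS1, where 0.469% of all genes did.

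KCNJ2-AS1 and LINC00339 fell with 5 nm particles once the number was fitted as a block, and neither passed in the fit over the groups. Neither passed either with the block on the 2 compared groups alone (limma adjusted p 0.258 and 0.548). KCNJ2-AS1 starts beside KCNJ2, the gene of an inwardly rectifying potassium channel. It read 6.99, 7.19 and 6.80 in control, 6.28, 6.56 and 6.18 with 5 nm particles, and 6.99, 7.13 and 6.61 with 100 nm particles. It fell by 0.66 on the log2 scale, or by 0.71, 0.63 and 0.63 within numbers, with a limma adjusted p of 0.035 with the block and 1 without it. LINC00339, an intergenic RNA of chromosome 1, read 8.72, 7.68 and 7.22 in control, 8.29, 7.21 and 6.89 with 5 nm particles, and 8.72, 7.68 and 7.25 with 100 nm particles. The 3 numbers lay further apart than the groups did, so the groups overlapped while every number was lower. It fell by 0.41, or by 0.43, 0.48 and 0.33 within numbers, with a limma adjusted p of 0.0285 with the block and 1 without it.

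With the block, these 2 RNAs passed as lower (0.325% of the 616), where 0.354% of all genes did, while none of the RNAs passed as higher and 0.296% of all genes did. At an unadjusted limma p under 0.05 with the block, 15 RNAs were higher and 34 lower (5.48% and 8.83% of all genes). The RNAs that passed depended on the arrays. Without 5 nm array 3 the block fit called 9 RNAs (1.46%) where it called 3.67% of all genes, and without 5 nm array 2 it called 15 (2.44%) where it called 2.68%. LINC00339 was among both and KCNJ2-AS1 among the 9 only. Without 5 nm array 1 it called UCKL1-AS1 alone (1.08% of all genes), without 100 nm array 3 it called DENND5B-AS1 alone (0.0905% of all genes), and without any 1 of the 3 control arrays or of 100 nm arrays 1 and 2 it called 0. Without all arrays of number 2 it called 3 (0.487%), ARHGAP5-AS1, C10orf95-AS1 and LINC02210, where it called 0.313% of all genes, and the fit over the groups called 0.

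Other RNAs were lower in each number without passing in either fit. TMPO-AS1 shares a start region with TMPO, which encodes a lamina-associated protein of the nuclear envelope. It read 8.79, 8.02 and 7.76 in control, 7.96, 6.87 and 6.98 with 5 nm particles, and 8.68, 8.12 and 7.76 with 100 nm particles. Its difference was -0.92 (-1.75 to -0.09), or -0.83, -1.15 and -0.77 within numbers, with a limma adjusted p of 0.0724 with the block. LINC01139 read 9.65, 9.53 and 9.0 in control, and 9.07, 8.17 and 8.51 with 5 nm particles, a difference of -0.81 (-1.45 to -0.17). LINC00857 differed by -0.86 (-0.68, -1.52 and -0.37 within numbers) and LINC00472 by -0.68 (-0.68, -1.07 and -0.30). LINC01123 differed by -0.60 (-0.47, -0.58 and -0.74), with a limma adjusted p of 0.0536 with the block, and LINC01116 by -0.58 (-0.47, -1.08 and -0.18). In these 6 RNAs the control and 5 nm arrays overlapped over the groups, while each number was lower.

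The antisense RNAs TGFB2-AS1, HHIP-AS1, PCNA-AS1, ZBED5-AS1 and PITPNA-AS1 also read lower in each number. TGFB2-AS1 differed by -0.53, most of it in number 2 (-0.07, -1.19 and -0.34), HHIP-AS1 by -0.52 (-0.44, -0.46 and -0.65) and PCNA-AS1 by -0.48 (-0.68, -0.24 and -0.52). ZBED5-AS1 differed by -0.42 (-0.26, -0.81 and -0.20) and PITPNA-AS1 by -0.40 (-0.23, -0.63 and -0.35). None passed, with limma adjusted p 1 over the groups and 0.111 (HHIP-AS1) to 0.372 (TGFB2-AS1) with the block.

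**Figure D2:**
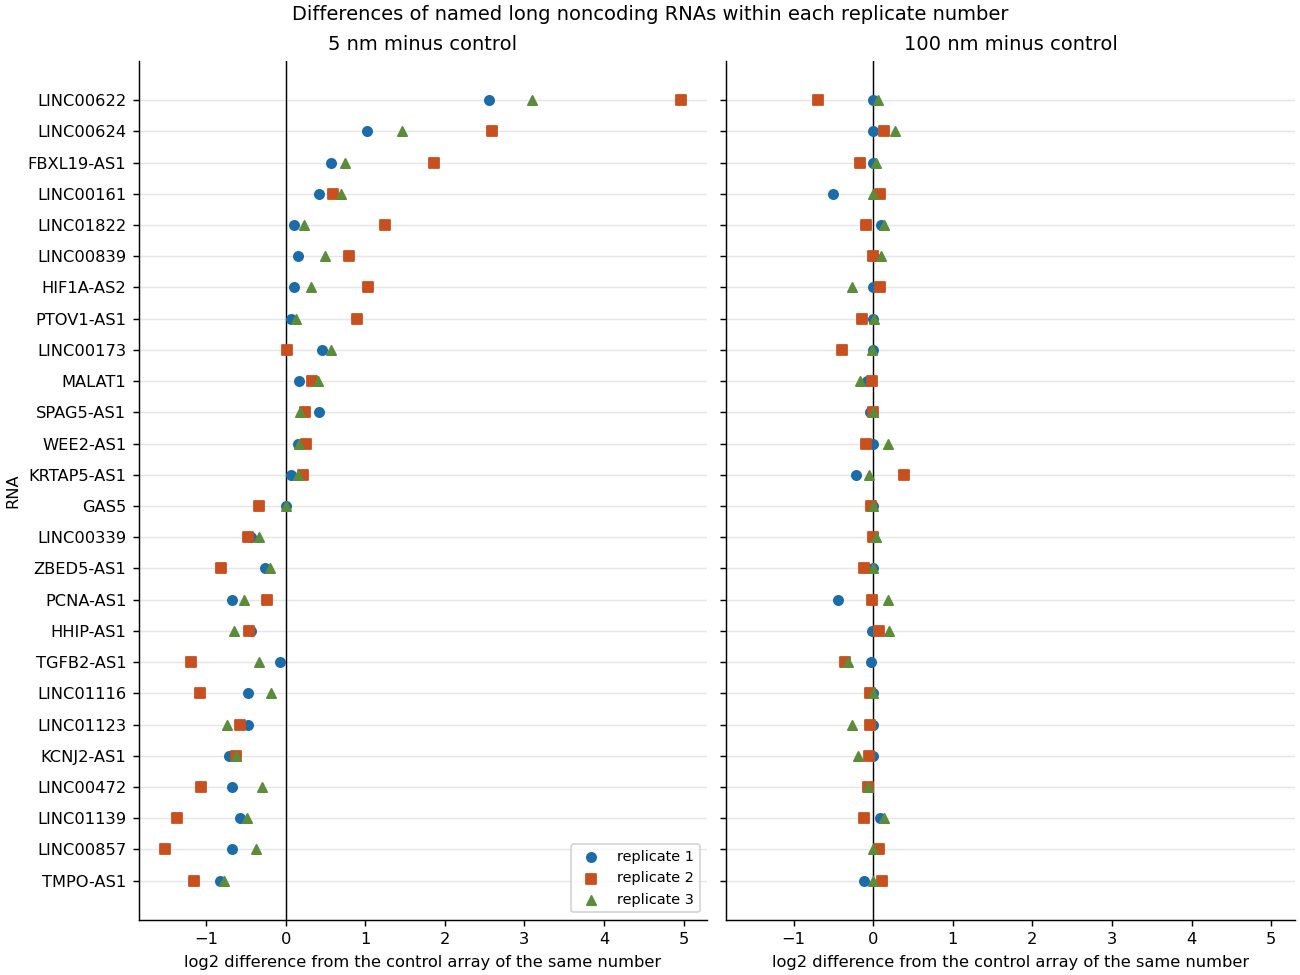
Log2 difference from the control array of the same replicate number (horizontal axis) for named long noncoding RNAs (vertical axis). The left panel shows 5 nm particles and the right panel 100 nm particles, and each point is 1 number. LINC00622 lies at 2.55 to 4.97 on the left, KCNJ2-AS1 at -0.71 to -0.63, and the points on the right lie between -0.69 and 0.39.

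MALAT1, an abundant nuclear RNA that gathers in splicing speckles and is well known in endothelial cells, differed little. It read 11.84, 11.31 and 11.53 in control, 12.00, 11.64 and 11.93 with 5 nm particles, and 11.75, 11.29 and 11.36 with 100 nm particles. Its difference was 0.30 (-0.21 to 0.81), or 0.17, 0.33 and 0.40 within numbers, with a limma adjusted p of 1, and 0.173 with the block. Its 2 other probe sets disagreed in direction between numbers, with -0.23, 0.15 and 0.11 for one and -0.28, 0.28 and 0.01 for the other, so the higher value rests on 1 of 3 probe sets. GAS5, which hosts small nucleolar RNAs and is cleared by nonsense-mediated decay, differed by -0.11 (-0.71 to 0.49) and was exactly equal in numbers 1 and 3.

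The brightest probe sets in control showed small differences. Brightness depends on the probes, so these values do not rank the RNAs by abundance. Among intergenic RNAs, LINC00987 had a control mean of 12.48 ± 0.23 and differed by -0.09, LINC01347 had 11.43 ± 0.22 and differed by 0.08, LINC01000 had 10.44 ± 0.20 and differed by 0.05, and LINC00999 had 10.08 ± 0.38 and differed by 0.08 (SD, n = 3). Among antisense RNAs, FGD5-AS1 had 9.91 ± 0.38 and differed by -0.12 (-0.12, -0.20 and -0.05), and PRRT3-AS1 had 9.01 ± 0.39 and differed by -0.05. PITPNA-AS1 and HHIP-AS1, given above, had 9.07 ± 0.68 and 8.90 ± 0.69.

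Across the set, most of the RNAs differed little with 5 nm particles. The median difference was 0 for intergenic RNAs, 0 for antisense RNAs and 0 for all 12155 genes. From the 10th to the 90th percentile the differences ran from -0.0862 to 0.126 in intergenic RNAs, -0.169 to 0.0637 in antisense RNAs and -0.205 to 0.151 in all genes. A difference over 0.25 in either direction was found for 7.63% of these RNAs and 13.4% of all genes. The same value in control and 5 nm arrays of all 3 numbers was found for 188 RNAs (30.5%), against 19% of all genes. Intergenic RNAs had it in 32.0% and antisense RNAs in 30.4%.

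Within numbers, lower values outnumbered higher values among antisense RNAs. Of 266 intergenic RNAs, 12 were higher in all 3 numbers (4.51%) and 15 lower (5.64%). Of 326 antisense RNAs, 9 were higher (2.76%) and 31 lower (9.51%). Over all genes tested, 8.03% were higher and 13.4% lower in all 3 numbers, both above the shares of either class. In number 1, 55 intergenic RNAs were higher and 52 lower. The counts were 43 and 51 in number 2, and 58 and 39 in number 3. For antisense RNAs they were 55 and 96, 57 and 82, and 45 and 61, with more lower than higher in each number. Over all genes tested the same held, with 2858 higher and 3853 lower in number 1, 3031 and 4193 in number 2, and 2285 and 3120 in number 3. The difference between the classes was not tested.

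**Figure D3:**
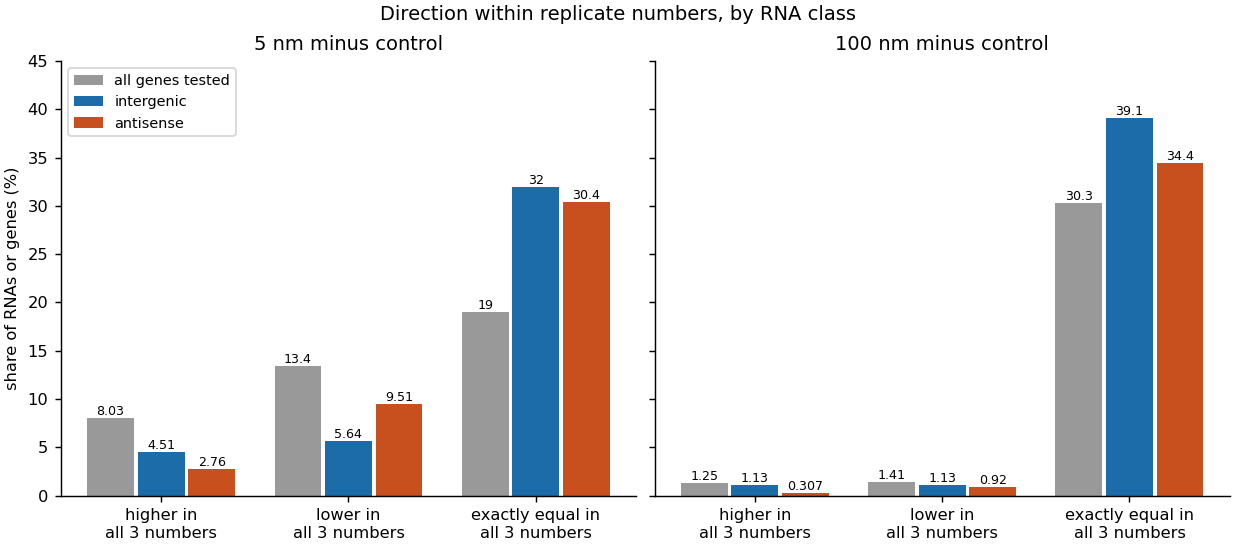
Share of intergenic RNAs, antisense RNAs and all genes tested (vertical axis, percent) that were higher, lower or exactly equal to the control array in all 3 replicate numbers, with 5 nm particles on the left and 100 nm particles on the right. With 5 nm particles 9.51% of antisense and 5.64% of intergenic RNAs are lower in all 3 numbers against 13.4% of all genes, and exact ties make up 32% of intergenic and 30.4% of antisense RNAs against 19% of all genes.

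Number 2 often held the largest difference. Of the 22 RNAs of any class that were higher in all 3 numbers, 14 had it there (63.6%), as did 79.2% of the 976 such genes overall. Of the 47 that were lower, 35 had it there (74.5%), as did 70.6% of the 1626 such genes. In numbers 1 and 3 alone, 24 intergenic RNAs were higher in both (9.02%) and 21 lower (7.89%), and 15 antisense RNAs were higher (4.60%) and 43 lower (13.2%), beside 10.4% and 16.4% of all genes.

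The 22 intronic or overlapping transcripts lay between -0.24 (ANP32A-IT1 and SYNJ2-IT1) and 0.23 (BIN3-IT1) with 5 nm particles. None was higher in all 3 numbers and 1 was lower.

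An antisense RNA can rise or fall with its sense gene where both share an open start region, or against it where one transcript hinders the other. A sense gene that was also tested was found for 218 RNAs, and 215 different sense genes were involved. Over these pairs the difference of the RNA and that of the sense gene with 5 nm particles correlated weakly, with a Pearson r of 0.179 and a Spearman coefficient of 0.103. These points share the same arrays and normalization and are not independent replicates. Without the 2 pairs whose sense gene differed most, r was 0.158. In 145 pairs neither partner had the same sign in all 3 numbers.

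In 5 of the 218 pairs (2.29%) both partners were lower in all 3 numbers. The RNA was so in 20 of the 218 pairs and the sense gene in 30, and nothing is read from the count of 5. TMPO-AS1 differed by -0.92 and TMPO by -0.63 (-0.62, -0.97 and -0.30 within numbers). PCNA-AS1 differed by -0.48 and PCNA, the sliding clamp of DNA replication, by -0.64 (-0.48, -1.10 and -0.34). HHIP-AS1 differed by -0.52 and HHIP, which encodes a decoy receptor for hedgehog ligands, by -0.41 (-0.43, -0.70 and -0.09). DENND5B-AS1 differed by -0.29 (-0.27, -0.27 and -0.31) and DENND5B, a regulator of membrane traffic, fell by 0.35 with the block (limma adjusted p 0.0331, and 1 without it). URB1-AS1 differed by -0.26 and URB1, a ribosome assembly factor gene, by -0.19. No pair had both partners higher in all 3 numbers.

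In 3 pairs the partners went opposite ways in all 3 numbers. SPAG5-AS1 differed by 0.42, 0.24 and 0.18, while SPAG5, which encodes the spindle protein astrin, differed by -0.32, -0.21 and -0.24. Neither passed in limma, with block adjusted p 0.156 for SPAG5-AS1 and 0.0514 for SPAG5. ARHGAP5-AS1 differed by -0.28, -0.55 and -0.26 and ARHGAP5 by 0.20, 0.74 and 0.11. RASSF8-AS1 differed by -0.08, -0.05 and -0.11 and RASSF8 by 0.27, 0.64 and 0.24. Of these pairs, only ARHGAP5-AS1 had groups that did not overlap.

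In further pairs 1 partner differed and the other hardly did, and none of these genes passed in limma in either fit. JMJD1C, related to histone demethylases, differed by 1.35 (0.62 to 2.09), with 1.02, 2.03 and 1.01 within numbers, and JMJD1C-AS1 was exactly equal on the 3 arrays of each number. STARD4, a sterol carrier gene, differed by 0.61 and STARD4-AS1 by 0.01. TNS2, which encodes a focal adhesion protein, differed by -0.60 and TNS2-AS1 by -0.07. In the other direction, FBXL19-AS1 differed by 1.06 and FBXL19 by -0.01, and PTOV1-AS1 by 0.36 and PTOV1 by 0.00 in each number. Whether the probes of each partner read 1 strand only was not tested.

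**Figure D4:**
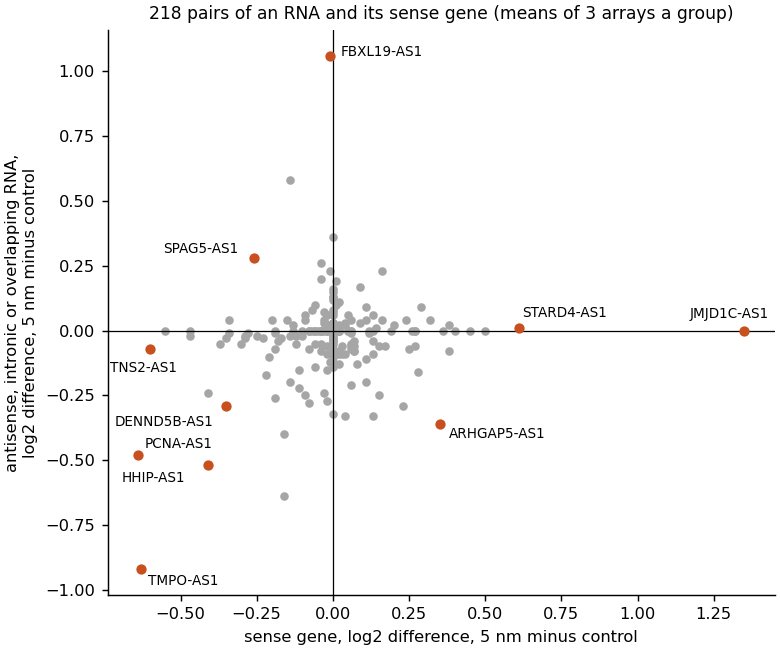
Log2 difference with 5 nm particles against control of the sense gene (horizontal axis) and of its antisense, intronic or overlapping RNA (vertical axis) in 218 pairs; each point is the difference of 2 means of 3 arrays, and named pairs are in orange. TMPO-AS1, PCNA-AS1 and HHIP-AS1 lie at the lower left with their sense genes, while JMJD1C-AS1 and FBXL19-AS1 lie on the axes.

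With 100 nm particles no long noncoding RNA passed the adjusted test in limma in either fit, where 0% of all genes did so. At an unadjusted limma p under 0.05 none of the RNAs passed over the groups, nor did any gene (0%). With the block 1 RNA passed as lower (0.162%), beside 0.165% of all genes, and none as higher, beside 0.107%. The RNA was LINC00928, with a difference of -0.10 (0.00, -0.16 and -0.14 within numbers). The differences of the 616 RNAs lay between -0.25 and 0.26. LINC00622 differed by -0.21 (-1.29 to 0.87), with 0.00, -0.69 and 0.06 within numbers. In 224 RNAs (36.4%) the 100 nm and control arrays were exactly equal in all 3 numbers, against 30.3% of all genes.

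Few RNAs kept 1 direction with 100 nm particles. In all 3 numbers 4 were higher and 7 lower, beside 1.25% and 1.41% of all genes. ENO1-AS1 read 5.58, 5.50 and 4.49 in control and 5.77, 5.81 and 4.55 with 100 nm particles, a difference of 0.19 (-0.76 to 1.13). LINC00920 differed by 0.13 (0.19, 0.14 and 0.05 within numbers) and LINC00886 by 0.11 (0.04, 0.23 and 0.05). TGFB2-AS1 read 6.01, 4.88 and 5.82 in control and 5.97, 4.54 and 5.50 with 100 nm particles, a difference of -0.23 (-1.50 to 1.03). LINC00472 and LINC01776 each differed by -0.07, SH3BP5-AS1 by -0.05 and MALAT1 by -0.09.

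The direct comparison of the particle sizes uses the same 5 nm arrays, so it repeats the 5 nm values against another baseline. LINC00622 was higher with 5 nm than with 100 nm particles by 3.75 (2.67 to 4.83) on the log2 scale, from 100 nm arrays near or under the level of 5, with a limma adjusted p of 0.0217, and 0.122 with the block. It was the only RNA that passed as higher, where 0.0658% of all genes did, and none passed as lower, where 0% did. Within numbers the difference was 2.55, 5.66 and 3.05. With the block KCNJ2-AS1 and LINC00339 differed by -0.57 and -0.42 (limma adjusted p 0.0471 and 0.0318), where 0.329% of all genes were lower and 0.288% higher. With the block on these 2 groups alone neither passed (limma adjusted p 0.549 and 0.474). LINC00624 differed by 1.55 (0.74 to 2.37), with 1.02, 2.46 and 1.18 within numbers, and did not pass (limma adjusted p 0.486, and 0.171 with the block). Over the groups LINC00622 did not pass without 100 nm array 2 (limma adjusted p 0.0826) and passed without any other single array. With the block, leaving out 5 nm array 2 gave 12 RNAs (1.95%, where 2.71% of all genes were called) and 5 nm array 3 gave 9 (1.46%, where 3.69% were). Leaving out 5 nm array 1 gave UCKL1-AS1 alone (1.08% of all genes), and leaving out any control or 100 nm array gave 0. Without all arrays of number 2 no RNA passed over the groups, and ARHGAP5-AS1, C10orf95-AS1 and LINC02210 passed with the block, where 0.313% of all genes did.

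Other noncoding RNAs without a LINC or AS symbol, and the proteins that bind or degrade such RNAs, are given from lists of known members. None of their genes passed in limma with 5 nm particles in either fit. Among 16 tested of 26 microRNA host genes and other named RNAs, 6 had positive differences, 7 negative and 3 exactly 0, and the median was 0, as over all genes. MEG3, an imprinted RNA, differed by 0.68 (0.08 to 1.28), with 0.54, 0.98 and 0.51 within numbers. MIR22HG, the host of a microRNA, differed by 0.49 (0.21, 0.84 and 0.42), and NORAD, which binds Pumilio proteins, by 0.47 (0.38, 0.64 and 0.39). DANCR, a long RNA that hosts small nucleolar RNAs, differed by -0.23 (-0.15, -0.22 and -0.31), with a limma adjusted p of 0.133 with the block. NORAD and DANCR were chosen after their values were seen. Among 9 tested of 18 small nucleolar RNA host genes, which are relatives of GAS5 in function, 4 were positive, 4 negative and 1 at 0, with SNHG5 at -0.14 and SNHG16 at -0.12.

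Paraspeckle proteins form a nuclear body around NEAT1. Of 15, 10 were tested, 8 with positive and 1 with a negative difference, and 2 were higher in all 3 numbers. The median was 0.0338, beside 0 over all genes. EWSR1 differed by 0.30 and HNRNPM by 0.20, and the others by 0.07 or less. The nuclear RNA exosome trims and degrades many long noncoding RNAs. Of 19 subunits and adaptors, 15 were tested, 6 positive and 9 negative with a median of -0.0627. In all 3 numbers 4 were higher and 5 lower. RBM7, an adaptor that brings unstable nuclear RNAs to the exosome, had the largest difference, 0.40 (0.28, 0.73 and 0.20 within numbers). EXOSC4, a core subunit, followed with 0.25 (0.13, 0.60 and 0.01). Of 15 nonsense-mediated decay factors, 6 were tested, 3 positive and 3 negative, with XRN1, a 5′ to 3′ exonuclease, at 0.22 and CASC3, an exon junction protein, at -0.14.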

How the data were processed

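Total RNA of 9 EA.hy926 samples was hybridised to Affymetrix whole-transcript arrays, per the labels' protocols. The authors deposited log2 intensities for 53617 probe sets. Per the submitters' processing notes they used RMA within Affymetrix Expression Console 1.3.1; the sources used here do not name a genome build. Many values were exactly equal, and offsets shared, within a replicate number; the labels do not say how the arrays were summarised, and the cause was not tested. Differences within a number leave out such shared offsets.

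In the platform annotation 16098 probe sets carried 1 symbol, 0 several and 37519 none, and all 16098 matched by Entrez identifier. They covered 14884 genes, each given by its probe set with the highest mean, and 12155 genes with a log2 value of at least 5 on at least 3 arrays were tested. All 9 arrays entered 1 fit of group means in limma 3.58.1 (R 4.3.3, lmFit and eBayes), with Benjamini-Hochberg adjustment over the 12155 genes and a threshold of 0.05. Intervals are 95%. The fit was tested on simulated data.

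The replicate number from the titles was fitted as a block as an alternative. With the group means removed, same-numbered arrays deviated together over all genes (r 0.762 to 0.967 in 9 pairs), so the numbers pair the arrays. The 18 pairs of different numbers had r -0.582 to -0.265, values that removing the means draws below 0. Other alternatives were the floor on dim probe sets, the mean of probe sets, 2 other centrings, the platform's own symbols, a trended prior, fits on 2 groups and leaving out each array. The array number limits the precision. Named RNAs were those that passed in any comparison in either fit, MALAT1 and GAS5, the 6 largest mean rises and falls of each class with 5 nm particles and the 2 largest with 100 nm particles among RNAs with 1 sign in all 3 numbers, and the 4 highest control means of each class. Pairs were named if their RNA was, or if the sense gene's difference was among the 5 largest, and pairs with both signs fixed and single RNAs outside this rule were chosen after their values were seen. The members, lists and markers were chosen with earlier results of these data known. Leukocyte markers had a probe set for 2 of 6, and 1 of these reached 5 on all 9 arrays. Promoters came from RefSeq, GRCh38.p14, which held 463 of the 616 RNAs and 30 of 41 named ones.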

Additional observations from a re-analysis of the deposited data

Results flagged for a closer look

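For LINC00622 the difference between the 5 nm and the 100 nm effect, both against the same controls, was 3.75 on the log2 scale (limma adjusted p 0.0217, and 0.122 with the replicate block). It met the requirement for testing only through its 5 nm arrays, where it was high. In limma it passed in 15 of 19 alternative settings. It did not pass with the block, with the block on 2 groups (adjusted p 0.549), with median centring (0.0973) or without 100 nm array 2 (0.0826). With the replicate block the difference between the particle sizes was -0.57 for KCNJ2-AS1 (limma adjusted p 0.0471) and -0.42 for LINC00339 (0.0318). Both were lower with 5 nm than with 100 nm particles in 3 of 3 numbers. Neither passed in the fit over the groups, or with the block on these 2 groups alone (limma adjusted p 0.549 and 0.474). As lower with the block, 0.325% of the RNAs passed, beside 0.329% of all genes.

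Of 121 probe sets of these RNAs that did not stand for their gene, 72 reached the floor, and of these 72, 1 had 5 nm arrays that all lay above the controls. It belongs to LINC01554 and read 5.65, 4.98 and 5.49 in control and 6.56, 6.2 and 5.79 with 5 nm particles, a difference of 0.81 (0.91, 1.23 and 0.30 within numbers). With 100 nm particles it read 5.71, 4.98 and 5.55. The brighter probe set of LINC01554, used above, differed by 0.15, so the probe sets of this RNA disagree in size.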

How the results depend on the processing

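The calls rest on few arrays and on how the replicate number is treated. The count of RNAs called with 5 nm particles against control was 1, became 2 with the replicate block, and was 0 with no floor, with a floor of 4, with median centring, with quantile normalization over the 9 arrays and with the replicate block on 2 groups only. Leaving out 1 array gave 0 to 1, and 0 to 15 with the block. The count for 5 nm against 100 nm particles was 1, became 2 with the block, and was 0 with median centring and with the block on 2 groups; leaving out 1 array gave 0 to 1, and 0 to 12 with the block. Leaving out all arrays of number 2, an alternative chosen after seeing the data like the block fits with arrays left out, gave 0 in both comparisons and 3 with the block. The count for 100 nm particles stayed 0 in each of these settings. The causes were not tested.

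Class medians, 0 throughout the reported values, moved little with centring. With median centring both classes moved to -0.0177 with 5 nm and to 0.00382 with 100 nm particles. For 5 nm against 100 nm particles both moved to -0.0216. With quantile normalization the values with 100 nm particles were 0.00389 in intergenic and 0.00378 in antisense RNAs. Leaving out 1 array moved the class medians further, since arrays of different numbers then face each other. For 5 nm against control the range was -0.113 to 0.123 in intergenic and -0.17 to 0.135 in antisense RNAs. For 100 nm against control it was -0.14 to 0.131 and -0.159 to 0.157, and for 5 nm against 100 nm -0.114 to 0.132 and -0.164 to 0.139. Of the values of single named RNAs and sense genes under these alternatives, 2467 kept their call or moved by under 1 SD, 508 moved by more, 15 lost and 4 gained a call, and 0 of the called values reversed. The block changed the call of no RNA beyond those named.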

Other observations

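Of the 16 RNAs that differed by over 0.5 with 5 nm particles, UCKL1-AS1 and ZEB2-AS1 did not keep 1 direction in all 3 numbers. UCKL1-AS1 read 5.82, 5.45 and 5.71 in control and 5.82, 6.28 and 6.62 with 5 nm particles, so it was equal in number 1 and higher by 0.83 and 0.90 in the other two. ZEB2-AS1, which runs against the gene of a transcription factor of the epithelial to mesenchymal transition, read 6.93, 7.61 and 7.08 in control and 6.41, 6.23 and 7.08 with 5 nm particles, so it was equal in number 3. Neither passed in limma, with an adjusted p of 1 for both, and 0.341 (UCKL1-AS1) and 0.402 (ZEB2-AS1) with the block. Both were picked after their values were seen.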
